A study of Mus musculus with 8 samples.

Results

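Activity-regulated immediate early genes were followed here through 10 members: Fos, Fosb, Junb, Egr1, Egr3, Nr4a1, Atf3, Arc, Homer1 and Bdnf. They were taken by name from a gene table of 23845 entries. All 10 had an entry, and all 10 passed the filter on low values (at least 1 TPM on average over the 8 libraries, which 13681 genes reached). TPM is a share of a library's transcripts corrected for transcript length.

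The members were measured by RNA sequencing in primary hippocampal neurons from mouse embryos (embryonic day 19). Every culture received lentivirus at day 13 to 15 in vitro and was taken at day 17 to 19. The scrambled groups, which are the controls, carried a hairpin RNA with a scrambled sequence, and the knockdown groups carried one against CNOT7, a deadenylase of the CCR4-NOT complex that shortens mRNA poly(A) tails. From each kind of culture, poly(A) RNA captured on poly(U) agarose was sequenced whole (total RNA, released at 75 °C) or after a 50 °C wash that, per the labels, leaves tails above 50 nucleotides (long-tail RNA). This gave 4 groups of 2 libraries. The labels name no mouse strain and no stimulus or silencing of the cultures, and they name 1 kind of CNOT7 hairpin. Whether the libraries within a group are from separate cultures is not stated, so p-values measure only the spread between these libraries, which may be technical.

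Immediate early genes are switched on in neurons by synaptic activity without the need for new protein synthesis. Calcium entry activates kinases that act on the transcription factors CREB, SRF and MEF2, and these act on the promoters of the group. Some members encode transcription factors that drive a later wave of genes, others encode proteins that act at synapses, and many of their mRNAs are short-lived, with AU-rich sequences in the 3′ untranslated region (UTR) that recruit deadenylases.

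Of the 10 genes, 7 had an entry in the RefSeq promoter set used here (build GRCm38.p6), with 14 promoters of 300 bases each. Arc, Egr1 and Egr3 had no entry in that set and were left out of this search and of the UTR search below. The letters TGACG, the core of the cAMP response element to which CREB binds, were searched on both strands. They occurred in 7 of the 14 promoters, at least 1 for each of the 7 genes, and in 20.8% of the 32851 promoters in the table. The promoters of Fos and Junb are shown because levels of these 2 mRNAs moved most closely together, that of Nr4a1 because it holds the most copies, and that of Homer1 because its mRNA differed most between fractions. Capitals mark TGACG or its complement CGTCA.
Fos, chr12:85473640-85473939, plus strand: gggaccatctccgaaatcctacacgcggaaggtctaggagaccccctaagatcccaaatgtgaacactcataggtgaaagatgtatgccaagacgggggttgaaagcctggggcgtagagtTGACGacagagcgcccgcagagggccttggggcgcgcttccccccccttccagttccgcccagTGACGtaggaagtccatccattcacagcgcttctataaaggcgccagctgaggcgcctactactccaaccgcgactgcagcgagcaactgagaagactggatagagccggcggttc
Junb, chr8:84978699-84978998, minus strand: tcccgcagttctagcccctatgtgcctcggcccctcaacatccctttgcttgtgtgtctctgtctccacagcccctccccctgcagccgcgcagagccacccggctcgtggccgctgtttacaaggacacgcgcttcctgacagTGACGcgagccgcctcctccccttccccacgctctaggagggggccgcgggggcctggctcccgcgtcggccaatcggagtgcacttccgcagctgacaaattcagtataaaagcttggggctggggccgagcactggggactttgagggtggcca
Nr4a1, chr15:101266596-101266895, plus strand: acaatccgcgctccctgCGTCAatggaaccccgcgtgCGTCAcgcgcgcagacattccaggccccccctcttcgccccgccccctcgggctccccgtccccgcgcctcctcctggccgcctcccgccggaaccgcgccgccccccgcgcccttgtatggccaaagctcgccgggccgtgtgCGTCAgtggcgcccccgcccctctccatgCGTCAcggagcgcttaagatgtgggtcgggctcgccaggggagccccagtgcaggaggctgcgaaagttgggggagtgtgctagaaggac
Homer1, chr13:93303507-93303806, plus strand: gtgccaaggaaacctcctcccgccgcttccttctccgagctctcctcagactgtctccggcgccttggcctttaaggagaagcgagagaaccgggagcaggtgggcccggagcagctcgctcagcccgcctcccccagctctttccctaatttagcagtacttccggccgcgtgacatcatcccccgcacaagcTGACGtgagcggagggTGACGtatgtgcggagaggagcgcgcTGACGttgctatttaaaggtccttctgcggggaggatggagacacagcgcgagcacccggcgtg

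Nr4a1 held 4 copies, Homer1 held 3, Fos held 2, and Junb, Fosb, Atf3 and 1 of the 7 Bdnf promoters held 1 each. The full palindrome TGACGTCA occurred in 0 of the 14 promoters and in 1.79% of all promoters. TATAAA, the TATA box, was found in 2 of the 14 (Fos and Junb), against 13.6% of all. The AP-1 site TGANTCA, bound by Fos and Jun proteins, was found in 1, against 7.81% of all. The EGR site GCGTGGGCG was in 0 of 14 (0.612% of all), as was the CArG box of SRF (1.63% of all). These are matches of letters in a window of 300 bases and no measure of binding. For Fos the window ran from 85473640 to 85473939, and the annotated gene starts at 85473890. Sites farther away were not searched, nor were promoters of Arc, Egr1 and Egr3, so a 0 does not mean that a gene lacks the site.

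The AU-rich heptamer TATTTAT was searched in the longest annotated 3′ UTR of the same 7 genes (GENCODE M21, GRCm38). Fos, Fosb, Bdnf and Atf3 held it (4 of 7), against 27.6% of 20994 genes with a 3′ UTR of any length. Fosb and Atf3 had 1 copy each, where 43.9% and 29.6% of UTRs of similar length had any. Fos had 2 copies in 815 nucleotides, where 19.9% of UTRs of similar length had any, and Bdnf had 3 in 2855 nucleotides, where 51.4% did. The sites of these genes are shown because each has more than 1 copy. Capitals mark the heptamer.
Fos site 1, chr12:85477103-85477131, plus strand: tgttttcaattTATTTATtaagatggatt
Fos site 2, chr12:85477127-85477155, plus strand: ggattctcagaTATTTATatttttatttt
Bdnf site 1, chr2:109724286-109724314, plus strand: gttctacaatcTATTTATtggacatatcc
Bdnf site 2, chr2:109726859-109726887, plus strand: acaagaaaaaaTATTTATtgtattttagt
Bdnf site 3, chr2:109726878-109726906, plus strand: gtattttagtaTATTTATataattatgtt

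Junb, Nr4a1 and Homer1 held no TATTTAT, where 11.7%, 14.1% and 62.1% of UTRs of similar length did. These genes held the shorter pentamer ATTTA, with 2 copies in Junb and 3 in Nr4a1. The long UTR of Homer1 (4349 nucleotides) held 17, where UTRs of similar length had a median of 7. This is 3.91 per kilobase, against a median of 1.24 per kilobase over all genes. The medians at similar length were 0 for Junb and 1 for Nr4a1. Fos held 4 copies (median 1), Bdnf 8 (median 5) and Atf3 3 (median 2), and Fosb held 1, below its median of 4. The genes carrying these UTRs lie on chromosome 12 (Fos, 85473890 to 85477273, plus strand), chromosome 8 (Junb, 84974484 to 84978718, minus strand), chromosome 15 (Nr4a1, 101254269 to 101274795, plus strand), chromosome 13 (Homer1, 93299635 to 93405129, plus strand), chromosome 2 (Bdnf, 109674700 to 109727007, plus strand), chromosome 7 (Fosb, 19302696 to 19310051, minus strand) and chromosome 1 (Atf3, 191170296 to 191218039, minus strand), in GRCm38.

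The targeted gene matched the labels. Cnot7 was at 42 and 36 TPM in scrambled and 12 and 16 TPM in knockdown total RNA, and at 28 and 31 against 9 and 11 TPM in long-tail RNA. All 9 neuronal markers were present, with a summed level of 3885 to 5733 TPM. Of 10 microglial markers, 5 were at 0 in every library (Aif1, Cx3cr1, Itgam, Tmem119 and Ptprc), and 2 were at 1 TPM or more in all. Their sum was 23 to 39 TPM. Of 9 endothelial and mural markers 3 were at 0 in every library (Pecam1, Cldn5 and Tek), and 4 were at 1 TPM or more in all. Their sum was 165 to 333 TPM, most of it Acta2 (180 and 274 TPM in scrambled total RNA). Markers of astrocytes (3154 to 5832 TPM) and of the oligodendrocyte lineage (1069 to 1997 TPM) were present. The 11 oligodendrocyte markers summed to 1833 to 1988 TPM in scrambled and 1245 to 1258 TPM in knockdown total RNA, and to 1591 to 1997 against 1069 to 1358 TPM in long-tail RNA. Their part in the differences below was not tested, and in bulk RNA fewer cells of a type and less RNA per cell cannot be told apart. Knockdown long-tail library 2 stood apart on the first principal component (50.1% of variance), at 56.6 where the other 7 libraries lay between −30.2 and 15.8. Rn45s, the precursor of ribosomal RNA, made up 2.90% of TPM there and 18.6% in knockdown long-tail library 1, and most results of members on these libraries are followed below by values without each. Read depth is unknown.

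All 10 immediate early mRNAs were detected in every library, in 3 tiers (plot of TPM by library). Egr1, a zinc finger transcription factor, was the highest in all 4 groups, at 129 and 90 TPM in scrambled and 119 and 102 TPM in knockdown total RNA, and at 96 and 80 against 100 and 117 TPM in long-tail RNA. A middle tier in scrambled total RNA ran from Egr3 at 72 and 55 TPM, through Bdnf, Fos, Junb, Homer1 and Nr4a1, down to Arc at 20 and 17 TPM. Neighbours in this order from Bdnf to Arc overlapped between libraries. Homer1 had rank 6 of 10 in both total groups, 7 in scrambled and 8 in knockdown long-tail RNA, where it overlapped Nr4a1 and Arc respectively. Junb had rank 5 in scrambled and 3 in knockdown total RNA, and 2 in both long-tail groups, overlapping the gene ranked next below it in all but knockdown long-tail RNA. Atf3 and Fosb were the lowest in every group, between 2 and 5 TPM. Because TPM were deposited as whole numbers, 1 step for these 2 genes is a large part of their level. The sum over the 10 genes was 447 and 330 TPM in scrambled total, 417 and 389 in knockdown total, 328 and 308 in scrambled long-tail and 338 and 359 TPM in knockdown long-tail RNA.

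**Figure D1:**
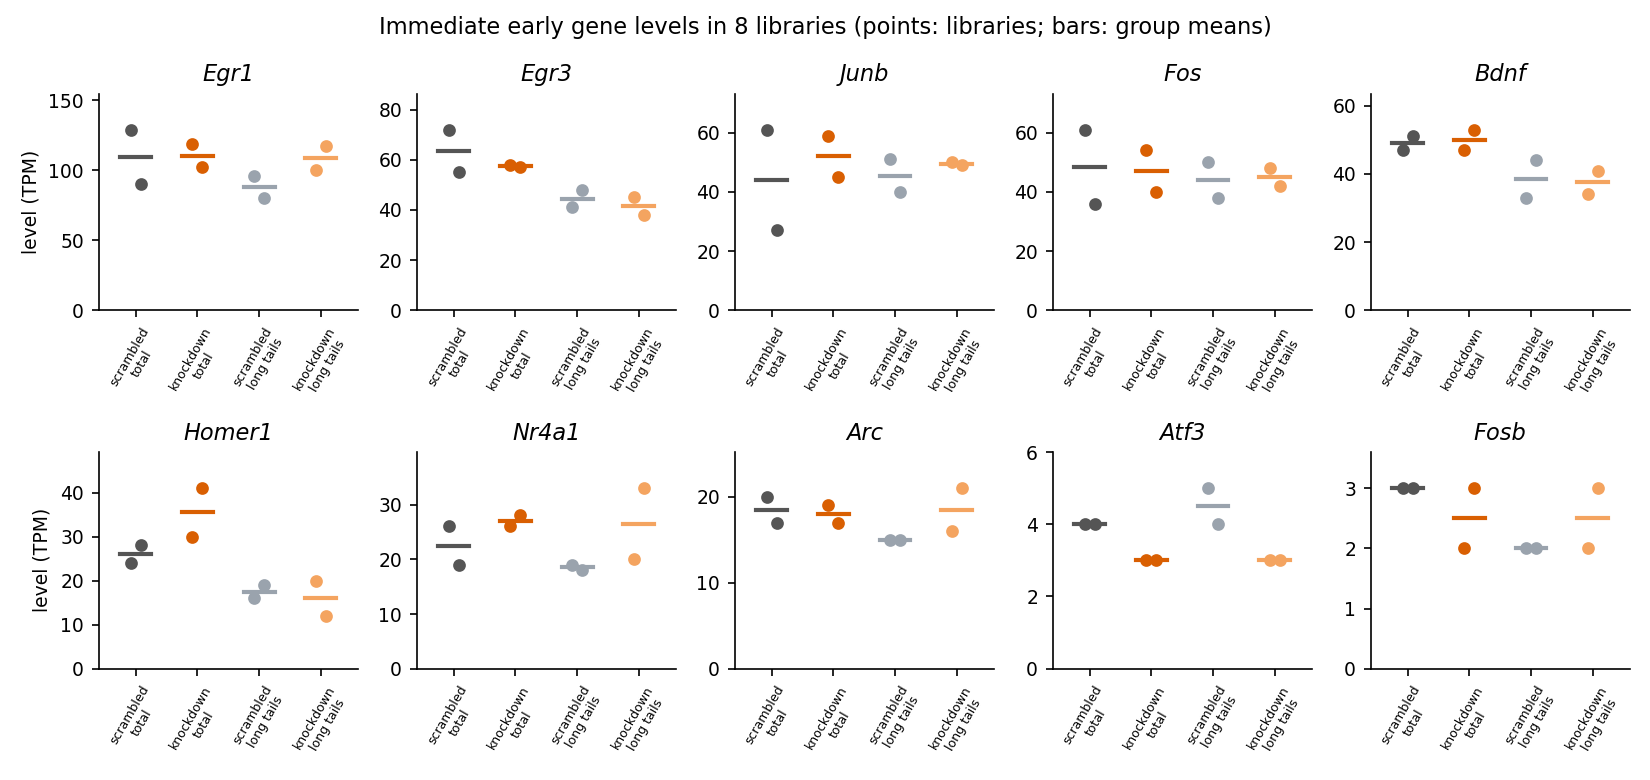
TPM of the 10 immediate early genes in each of the 8 libraries, 2 points for each group. Egr1 lay between 80 and 129 TPM and was the highest member in all 4 groups, and Atf3 and Fosb lay between 2 and 5 TPM.

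The first comparison asked whether these mRNAs differed in total RNA after CNOT7 knockdown. None of the 10 passed the test. The limma model with Benjamini-Hochberg adjustment called 0 of the 10 members, as it called 0% of all genes. Even the targeted Cnot7 was not called, at −1.42 in total RNA (limma, adjusted p = 0.153) and −1.48 in long-tail RNA (adjusted p = 0.173). A gene that was not called may therefore still differ. At an unadjusted p under 0.05 the model took 1 member (Atf3), against 6.34% of genes. Libraries of the 2 hairpins did not overlap for 2 members, against 28.8% of genes. Homer1 had both knockdown libraries higher (as did 8.68% of genes) and Atf3 had both lower (20.1%). The members split into 5 above and 5 below 0, with a median log2 difference of 0.01, where all genes had a median of −0.07. Of all genes, 32.6% lay above 0 and 60.2% below. The members' median was 0.18 without scrambled library 1 and −0.22 without scrambled library 2.

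Among the transcription factors, Fos, which pairs with Jun proteins to form AP-1, was at 61 and 36 TPM in scrambled and 54 and 40 TPM in knockdown total RNA. The knockdown libraries lay inside the range of the scrambled ones. The log2 difference was −0.01 with 95% limits of −0.76 to 0.73, and it was 0.36 without scrambled library 1 and −0.38 without scrambled library 2. Junb, a partner of Fos, was at 61 and 27 against 59 and 45 TPM, with a difference of 0.33 (limits −0.62 to 1.29), and here too the groups overlapped. For Junb it was 0.91 without scrambled library 1 and −0.24 without scrambled library 2. Fosb, also an AP-1 subunit, was at 3 and 3 against 2 and 3 TPM.

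Egr1 differed by 0.03 (limits −0.50 to 0.56) and overlapped between hairpins. Its relative Egr3 was at 72 and 55 TPM in scrambled and 58 and 57 TPM in knockdown total RNA, a difference of −0.13 (limits −0.56 to 0.30) with the knockdown libraries inside the scrambled range. The orphan nuclear receptor Nr4a1 was at 26 and 19 against 26 and 28 TPM, a difference of 0.27 (limits −0.39 to 0.93), and the higher scrambled library equalled the lower knockdown one. Without scrambled library 1 the differences were 0.29 for Egr1, 0.06 for Egr3 and 0.48 for Nr4a1, and without scrambled library 2 they were −0.23, −0.32 and 0.05. Atf3, a stress-responsive member of the ATF/CREB family, was at 4 and 4 TPM in scrambled and 3 and 3 TPM in knockdown libraries. The groups did not overlap, and the difference of −0.32 had an SE of 0.116 (limma, unadjusted p = 0.0343, adjusted p = 0.739). It amounts to 1 whole-number step of the table.

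Of the effectors, Arc, which controls uptake of AMPA receptors and forms capsid-like particles, was at 20 and 17 TPM in scrambled and 19 and 17 TPM in knockdown total RNA. The difference was −0.04 (limits −0.46 to 0.39), and the groups overlapped. Bdnf, a secreted neurotrophin, was at 47 and 51 against 47 and 53 TPM, a difference of 0.03 (limits −0.42 to 0.47), again with overlap. Homer1, a scaffold protein of the postsynaptic density, was at 24 and 28 against 30 and 41 TPM. Both knockdown libraries were above both scrambled ones, and the difference of 0.42 had limits of −0.27 to 1.12 (limma, adjusted p = 0.927). It was 0.64 without knockdown library 1 and 0.20 without knockdown library 2. The table has 1 value per gene, so the short activity-induced form of Homer1 is added to the long forms (11 coding transcripts in GENCODE M21), and the products of the several Bdnf promoters are added together.

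In long-tail RNA the same hairpins were compared, in libraries made from the long-tail fraction. Again 0 of 10 members were called by limma (0% of genes), and 1 had an unadjusted p under 0.05 (Atf3), against 8.72% of genes. The groups did not overlap for 4 members, against 26% of genes: Nr4a1, Egr1 and Arc with both knockdown libraries above (8.91% of genes), and Atf3 with both below (17.1%). The members' median was 0.09, where that of all genes was −0.10.

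Nr4a1 was at 19 and 18 TPM in scrambled and 20 and 33 TPM in knockdown long-tail RNA. The difference of 0.45 (SE 0.265; limma, adjusted p = 0.650) rested on knockdown library 2: it was 0.11 without that library and 0.80 without knockdown library 1. Egr1, at 96 and 80 against 100 and 117 TPM, had a difference of 0.30, which was 0.41 without knockdown library 1 and 0.19 without library 2. Arc was at 15 and 15 against 16 and 21 TPM, a difference of 0.27, which was 0.46 without knockdown library 1 and 0.09 without library 2. Over the 8 libraries the log2 level of Arc had r = −0.76 and that of Nr4a1 r = −0.56 with that of Rn45s, as a description over libraries that share groups. With Rn45s left out and the libraries rescaled, the differences were 0.43 for Nr4a1, 0.28 for Egr1 and 0.25 for Arc.

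Atf3 was at 5 and 4 TPM in scrambled and 3 and 3 TPM in knockdown long-tail RNA. The difference was −0.45 (SE 0.116; limma, unadjusted p = 0.00892, adjusted p = 0.475). Leaving out either knockdown library could not change it, because both had the same whole number. It was −0.32 without scrambled library 1 and −0.58 without scrambled library 2. Equal whole numbers within groups also keep the SE small. Taken over both fractions, Atf3 was the 1 member whose 4 knockdown libraries (3 TPM each) did not overlap the 4 scrambled ones (4 to 5 TPM). Of all genes, 3.53% did not overlap in this way and 2.05% were lower in knockdown. The remaining members overlapped in long-tail RNA. Fos was at 50 and 38 against 48 and 42 TPM (0.04), Junb at 51 and 40 against 50 and 49 TPM (0.13), and Fosb at 2 and 2 against 2 and 3 TPM (0.21). Egr3 was at 41 and 48 against 45 and 38 TPM (−0.10), Bdnf at 33 and 44 against 34 and 41 TPM (−0.03), and Homer1 at 16 and 19 against 20 and 12 TPM (−0.16). For Homer1 the 2 knockdown libraries lay on either side of the scrambled pair, and the difference was −0.50 without knockdown library 1 and 0.19 without library 2. The other 5 of these lay between −0.22 (Egr3) and 0.42 (Fosb) without library 1, and between −0.16 (Bdnf) and 0.14 (Junb) without library 2.

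**Figure D2:**
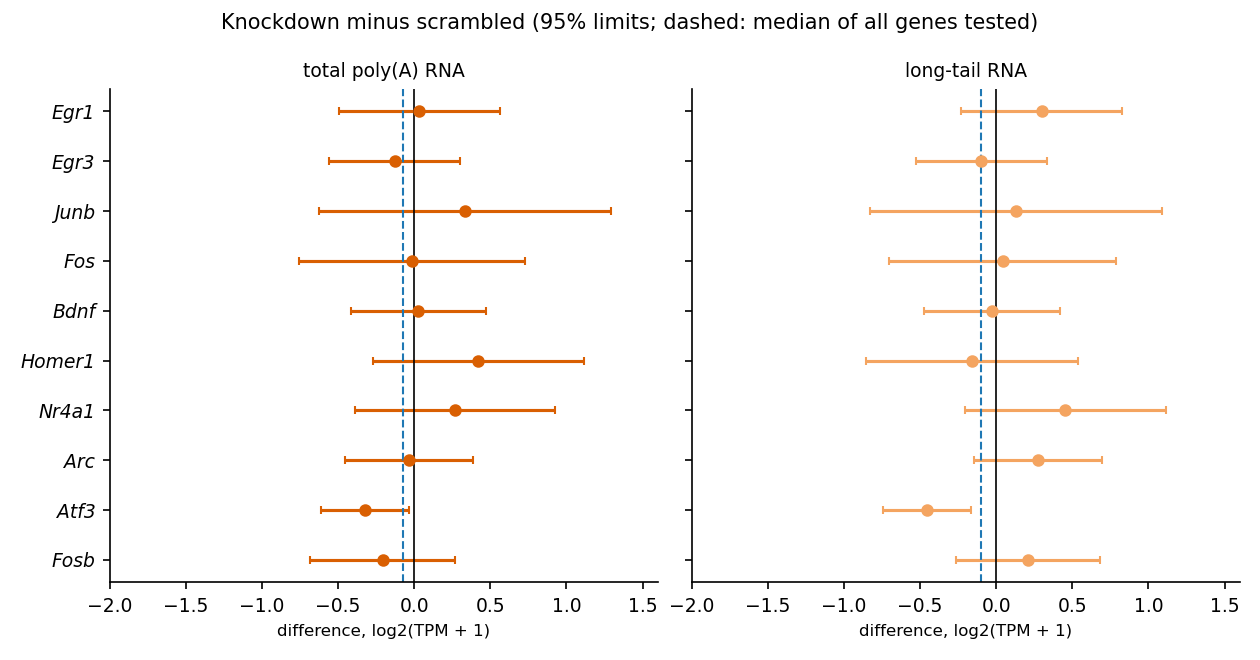
Knockdown minus scrambled log2(TPM + 1) for each member in total RNA (left) and long-tail RNA (right), as points with 95% limits from limma; the dashed line is the median of all genes tested (−0.07 and −0.10). Limits crossed 0 for all members but Atf3, at −0.32 in total and −0.45 in long-tail RNA.

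The authors' deposited tables of genes that differed between hairpins hold 104 genes for total RNA and 97 for long-tail RNA, all with an adjusted p under 0.05. None of the 10 members is in either authors' deposited table. The 104 and 97 genes are a small share of the 23845 entries in the gene table. At such a share most sets of 10 genes would have no gene listed, so this absence does not set the members apart.

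The next comparison set the long-tail fraction against total RNA, averaged over both hairpins. A value is a share within its library, so it asks whether a gene took a larger or smaller share of the long-tail library than of the total library. None of the 10 members passed the test: limma called 0, against 0.11% of genes, and took 3 at an unadjusted p under 0.05, against 35.7%. For the same 3 (Homer1, Egr3 and Bdnf) all 4 long-tail libraries lay below all 4 total ones, as for 18.2% of genes. The members' median was −0.16 and that of all genes −0.22, with 7 of the 10 members above the median of all genes.

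Homer1 had the widest range of the 10 genes over the 8 libraries, 1.69 on the log2 scale. With the scrambled libraries first, it was at 24, 28, 30 and 41 TPM in total RNA and at 16, 19, 20 and 12 TPM in long-tail RNA. The averaged log2 difference was −0.84 (SE 0.197; limma, unadjusted p = 0.00633, adjusted p = 0.0647). It passed the threshold when the filter on the mean was raised to 5 TPM (adjusted p = 0.0334, with 19% of genes called) or to 20 TPM (adjusted p = 0.0187, with 19.7% called). It passed as well without knockdown long-tail library 1 (−1.01, adjusted p = 0.0211, with 23.6% called), and was −0.66 without library 2. Over every setting tried it lay between −1.01 and −0.55, with adjusted p from 0.0187 to 0.189.

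Egr3 was at 72, 55, 58 and 57 TPM in total and at 41, 48, 45 and 38 TPM in long-tail RNA. The difference was −0.48 (SE 0.122; limma, adjusted p = 0.0677), which was −0.54 without knockdown long-tail library 1 (adjusted p = 0.0524) and −0.42 without library 2. With the filter at 5 TPM the adjusted p was 0.0448, and with that at 20 TPM 0.0376. Over every setting tried the difference of Egr3 lay between −0.58 and −0.26, with limma adjusted p from 0.0376 to 0.230. Bdnf was at 47, 51, 47 and 53 TPM in total and at 33, 44, 34 and 41 TPM in long-tail RNA, a difference of −0.38 (SE 0.127; limma, unadjusted p = 0.0257, adjusted p = 0.0961). It was −0.32 without knockdown long-tail library 1 and −0.45 without library 2. Its highest long-tail library, at 44 TPM, was below its lowest total library, at 47 TPM.

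The other 7 members differed less between fractions. Their averaged differences were −0.21 for Fosb, −0.16 for Egr1, −0.16 for Nr4a1, −0.13 for Arc, −0.08 for Fos, 0.05 for Junb and 0.07 for Atf3, and each overlapped between fractions. Without knockdown long-tail library 1 the values were −0.10 for Fosb, −0.10 for Egr1, 0.01 for Nr4a1, −0.03 for Arc and −0.12 for Fos, and without library 2 they were −0.31, −0.22, −0.33, −0.22 and −0.03. Without scrambled total library 1 Junb was at 0.33 and Fos at 0.11, and without scrambled total library 2 at −0.24 and −0.26. The signs for Arc, Fosb, Fos and Nr4a1 turned with quantile normalization, which moves the median of all genes from −0.22 to 0.01. These genes were then at 0.16, 0.03, 0.15 and 0.10. Set against the median of all genes, Homer1, Egr3 and Bdnf lay below it with the deposited scale and with quantile normalization alike (−0.55, −0.26 and −0.15 there).

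**Figure D3:**
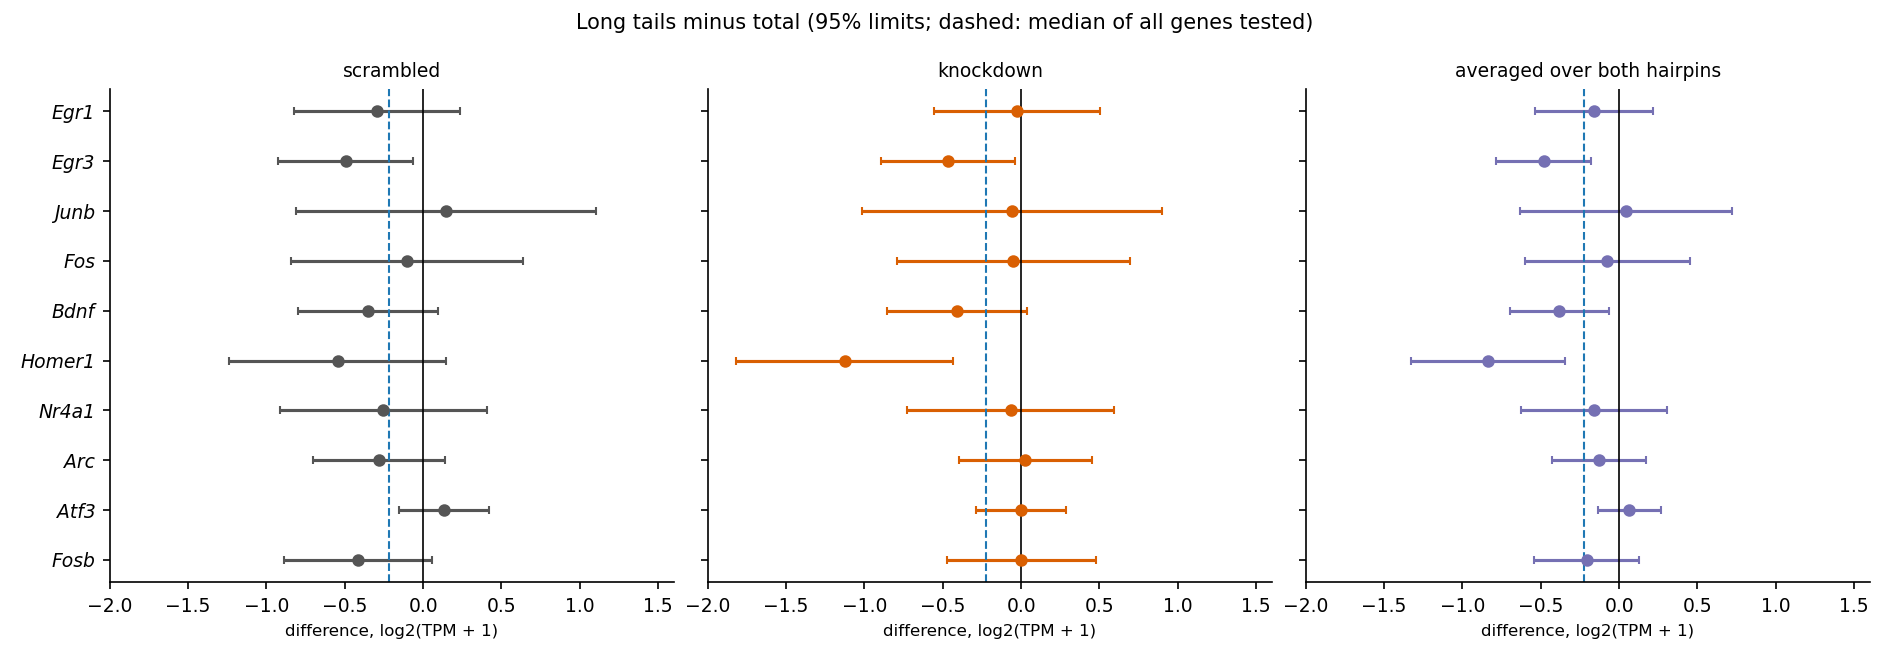
Long-tail minus total log2(TPM + 1) of each member in scrambled and in knockdown neurons, as points with 95% limits from limma; the dashed line is the median of all genes tested (−0.22 in each). Homer1 lay lowest in scrambled neurons, at −0.55, and in knockdown neurons, at −1.13.

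Within scrambled neurons 8 members lay below 0, as did 74.3% of genes, and 2 above. Arc, Bdnf, Egr3, Fosb and Homer1 did not overlap between fractions, all with long-tail libraries lower, where 39.6% of genes did the same. Limma called 0 members (0% of genes), and 1 member (Egr3) had an unadjusted p under 0.05, against 13.2% of genes. Homer1 had a difference of −0.55, Egr3 of −0.50, Fosb of −0.42 (1 step, from 3 to 2 TPM), Bdnf of −0.35 and Arc of −0.28 (20 and 17 against 15 and 15 TPM). The median of the members was −0.29, beside −0.22 for all genes.

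Within knockdown neurons Homer1, Egr3 and Bdnf again did not overlap between fractions, against 40% of genes with long-tail libraries lower. Limma called 0 members (0% of genes), and 2 (Homer1 and Egr3) had an unadjusted p under 0.05, against 26% of genes. Homer1 was at 30 and 41 TPM in total and 20 and 12 TPM in long-tail RNA, a difference of −1.13 (SE 0.279; limma, adjusted p = 0.140). Without knockdown long-tail library 1 it was −1.47 (adjusted p = 0.0307, with 15.3% of genes called), and −0.78 without library 2. Egr3 had a difference of −0.47 (−0.58 and −0.35 without library 1 and without library 2) and Bdnf of −0.41 (−0.28 and −0.54). The other 7 members lay between −0.07 and 0.03. This narrow range rested on both libraries: without library 1 Nr4a1 was at 0.28, Arc at 0.21 and Fosb at 0.21, and without library 2 these were at −0.41, −0.16 and −0.21. The median of the members was −0.05 where that of all genes was −0.22.

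The interaction tests whether the knockdown difference in long-tail RNA departs from that in total RNA. Limma gave an adjusted p of 1 for all 10 members, with 0 called (0% of genes) and 0 with an unadjusted p under 0.05 (0.877% of genes). Homer1 had the lowest value, −0.58 (SE 0.395; limits −1.56 to 0.40), from 0.42 in total and −0.16 in long-tail RNA. It was −0.93 without knockdown long-tail library 1 and −0.23 without library 2. Fosb had the highest, 0.42, which was 0.62 without library 1 and 0.21 without library 2. Arc followed at 0.31, which was 0.49 and 0.12.

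Within the group, mRNAs varied together over the 8 libraries to unequal degrees. Fos and Junb had r = 0.86, Arc and Egr1 0.86, Arc and Nr4a1 0.86, and Egr3 and Homer1 0.75. Nr4a1 and Atf3 had r = −0.62. Atf3 was the 1 member with a negative r against the mean of the others, −0.40. These values describe 8 libraries of 4 groups that share scale and composition.

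Genes outside the group whose log2 level was most like the members' mean, among 9269 genes averaging 10 TPM or more, were Spred3 (r = 0.97), Elfn1 (0.97), F730043M19Rik (0.96), Zfp553 (0.96) and Galns (0.95), over 8 libraries. Spred3 was at 52, 37, 46 and 42 TPM in total and 30, 30, 34 and 35 TPM in long-tail RNA. All total libraries were above all long-tail ones, as for 18.2% of genes. Because Spred3 was picked as the highest of 9269 values over 8 libraries, its likeness and this separation are a description only. The least alike were 1810044D09Rik (−0.78), Smim8 (−0.78), Rangrf (−0.78), Hist1h4h (−0.76) and Spata24 (−0.76).

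Other genes of the activity response were read from lists. Of 28 tested immediate early transcription factors beyond the 10, 10 were higher and 16 lower in knockdown total RNA, with a median of −0.08 beside −0.07 for all genes. Limma called 0, and 1 in each direction had an unadjusted p under 0.05, where 2.05% of genes were higher and 4.3% lower at that level. The higher one was Nr4a3, an orphan nuclear receptor related to Nr4a1, at 58 and 37 TPM in scrambled and 101 and 93 TPM in knockdown total RNA, a difference of 1.05 (SE 0.390; limma, adjusted p = 0.745). In long-tail RNA Nr4a3 was at 32 and 28 against 71 and 33 TPM. The lower one was Jun, the partner of Fos in AP-1, at 127 and 124 against 92 and 91 TPM (−0.45, adjusted p = 0.758). Between fractions 7 of the 28 were higher and 20 lower in long-tail RNA, where 73.5% of all genes were lower, and 7 of the lower ones had an unadjusted p under 0.05 (34.3% of genes), Per1 among them (−0.40, adjusted p = 0.0638).

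Of 46 other activity-induced effectors and late-response genes, 24 were higher and 20 lower in knockdown total RNA, where 32.6% of all genes were higher and 60.2% lower. Limma called 0, with 5 higher and 3 lower at an unadjusted p under 0.05, beside 2.05% and 4.3% of genes. Nrn1, a small protein anchored to the neuronal surface, was at 195 and 179 TPM in scrambled and 327 and 291 TPM in knockdown total RNA, and at 169 and 164 against 242 and 289 TPM in long-tail RNA. Its difference in total RNA was 0.72 (SE 0.131; limma, adjusted p = 0.323). The authors' deposited table of total RNA has it rising by 0.71 (adjusted p = 0.00629), and the authors' deposited table of long-tail RNA by 0.69 (adjusted p = 0.00981). The salt-inducible kinase Sik1 was at 5 and 4 against 8 and 10 TPM (0.86, adjusted p = 0.403), and the cell-cycle inhibitor Cdkn1a at 204 and 205 against 159 and 141 TPM (−0.45, adjusted p = 0.739).

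Among 53 genes of activity signalling to the nucleus, which are calcium, MAP kinase, CREB, SRF and MEF2 factors, 17 were higher and 34 lower in knockdown total RNA (32.6% and 60.2% of all genes). Limma called 0, with 2 higher and 4 lower at an unadjusted p under 0.05 (2.05% and 4.3% of genes). Mapk3, the kinase ERK1, was at 296 and 281 TPM in scrambled and 149 and 132 TPM in knockdown total RNA (−1.03; limma, adjusted p = 0.334). Rasgrf1, a calcium-responsive activator of Ras, was at 14 and 17 against 7 and 8 TPM (−0.95, adjusted p = 0.284). Mapk3 fell by 0.81 (adjusted p = 0.00452) and Rasgrf1 fell by 0.82 (adjusted p = 0.00722) in the authors' deposited table of total RNA. Hras, a Ras protein, was at 63 and 60 against 87 and 118 TPM in long-tail RNA and rose by 0.71 in the authors' deposited table for that fraction (adjusted p = 0.0268).

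Between fractions the median of these signalling genes was −0.43, beside −0.22 for all genes, with 48 of 53 lower in long-tail RNA (73.5% of genes) and 32 of them at an unadjusted p under 0.05 (34.3% of genes). Ppp3ca, the catalytic subunit of calcineurin, was at 251, 217, 358 and 330 TPM in total and 147, 144, 200 and 161 TPM in long-tail RNA (−0.81; limma, adjusted p = 0.0633). All 4 long-tail libraries were below all 4 total ones. Crtc1, a coactivator of CREB, had a difference of −0.57 (adjusted p = 0.0633).

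The 30 tested binding partners of Arc, Homer1 and BDNF had a median of −0.51 between fractions, beside −0.22 for all genes, with 26 lower (73.5% of genes) and 18 of these at an unadjusted p under 0.05 (34.3%). Shank3, a scaffold that binds Homer proteins, was at 95, 81, 115 and 106 TPM in total and 57, 55, 81 and 57 TPM in long-tail RNA, where 1 long-tail library equalled the lowest total one (−0.67; limma, adjusted p = 0.0633). Sort1, the sorting receptor sortilin, had a difference of −0.68 (adjusted p = 0.0638). In knockdown total RNA 13 partners were higher and 17 lower (32.6% and 60.2% of genes), with 0 called and 1 higher and 2 lower at an unadjusted p under 0.05 (2.05% and 4.3%). Sort1 was at 96 and 91 against 136 and 138 TPM (0.55, adjusted p = 0.771), and Sh3gl2, an endophilin of synaptic endocytosis, at 165 and 148 against 103 and 97 TPM (−0.64, adjusted p = 0.421).

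Among 30 tested proteins that bind AU-rich elements or poly(A) tails, 15 were higher and 15 lower in knockdown total RNA (32.6% and 60.2% of genes). Limma called 0, and at an unadjusted p under 0.05 there were 1 lower gene, Cnot7 itself, and 1 higher (4.3% and 2.05% of genes). The higher one was Hnrnpab, an RNA-binding protein, at 117 and 111 TPM in scrambled and 177 and 157 TPM in knockdown libraries (0.54; limma, adjusted p = 0.659). Zfp36, tristetraprolin, which brings the deadenylase complex to AU-rich mRNAs, was at 18 and 12 TPM in scrambled and 13 and 10 TPM in knockdown total RNA, with overlapping groups. Between fractions 28 of the 30 were lower in long-tail RNA (73.5% of genes), with a median of −0.37 beside −0.22 for all genes. Among them were Cpeb2 (−0.98, adjusted p = 0.0657) and Tia1 (−0.62, adjusted p = 0.0633). The 21 stress-response genes, a list to which Atf3 is related, were split 11 higher and 9 lower in knockdown total RNA (median 0.00, beside −0.07 for all genes) and 10 and 10 between fractions (median 0.00, beside −0.22). Atf4, which activates Atf3 in the stress response, was at 189 and 149 against 210 and 171 TPM in total and 195 and 191 against 230 and 251 TPM in long-tail RNA.

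**Figure D4:**
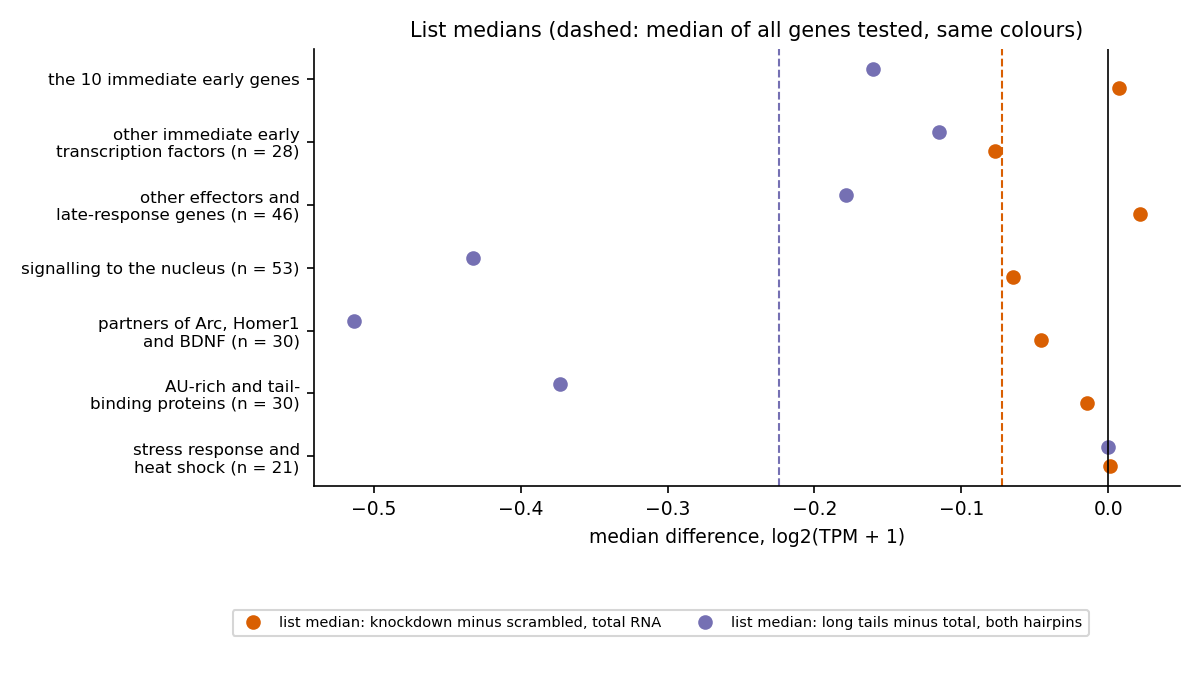
Median log2(TPM + 1) difference of the 10 members and of each list, for knockdown minus scrambled in total RNA and for long-tail minus total averaged over both hairpins, with the medians of all genes tested at −0.07 and −0.22. The binding partners (−0.51) and signalling genes (−0.43) lay lowest between fractions, and the 10 members lay at −0.16.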

How the data were processed

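The deposited gene table holds, per its name and values, TPM made with RSEM, which the authors rounded to whole numbers and which is treated as a score with library sums of 999689 to 999809. The submitters' processing notes name build mm10 and the tools RSEM, TopHat2, CASAVA, DESeq2 and DESeq, with no versions in the sources used here. The authors' 2 deposited tables give, per the file headers, log2 fold changes and adjusted p-values. Their sign was opposite to the TPM difference for all 104 and 97 genes and was turned, so that positive means higher in knockdown. Dates stood in place of 27 gene names.

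Values were taken as log2(TPM + 1). A single fit of 4 group means took in all 8 libraries and the 13681 genes averaging 1 TPM or more, with limma 3.58.1 (R 4.3.3; eBayes with a trend, 4 residual degrees of freedom), tested two-sided in 6 contrasts with Benjamini-Hochberg adjustment over all genes and a threshold of 0.05. Fold changes are on this log2 scale, which understates those of low genes. An exact permutation test of 2 libraries against 2 cannot give a p under 0.333. The members and lists were chosen with earlier results of these data known. List genes were named by smallest p, up to 3 per direction, among those with a mean of at least 5 TPM, and only some of them are described. Of the list entries, Triad3 and Auf1 had no match in the table. Sequences are from RefSeq and GENCODE. Other settings covered the pseudocount, the filter, the scaling, the spread estimate, a replicate block and each library left out.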

Additional observations from a re-analysis of the deposited data

How the results depend on the processing

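Depth is unknown and TPM are whole numbers, so differences of 1 step in Fosb and Atf3 are the finest the table can show. The count of members past the threshold was 0 in every contrast and setting except these. For long-tail minus total averaged over both hairpins it was 2 (Homer1 and Egr3) with a filter at a mean of 5 TPM and 2 with one at 20 TPM, where fewer genes were tested and 2105 and 1340 genes were called in place of 15. With the filter at 5 TPM the genes called between fractions, 0 in each list before, were 1 of 25 other transcription factors, 6 of 38 effectors, 14 of 51 signalling genes, 10 of 29 partners, 11 of 30 AU-rich or tail proteins and 0 stress genes. Of all genes, 19% were called with that filter. More were called in each list without knockdown long-tail library 1, as were more of all genes, in a fit with 1 library left in that group. Over all genes and settings the count called reached 101 for knockdown minus scrambled in total RNA, 83 in long-tail RNA, 155 between fractions in scrambled neurons, 2104 in knockdown neurons and 3237 averaged, and 2 for the interaction. The members past the threshold between fractions in scrambled neurons numbered 1 (Fosb, adjusted p = 0.0324, with 1.12% of genes called) in a fit of only the 4 libraries compared. With 1 library left out at a time that number ran from 0 to 1 for the averaged contrast and from 0 to 1 in knockdown neurons, where the 1 was Homer1 without knockdown long-tail library 1. Quantile normalization moved the members' median between fractions to −0.077 in scrambled neurons, 0.17 in knockdown neurons and 0.067 averaged. It turned the averaged differences of Arc to 0.16, Fosb to 0.030, Fos to 0.15 and Nr4a1 to 0.10. With 1 library left out, the members' median ran from −0.22 to 0.18 for knockdown minus scrambled in total RNA, where it was −0.22 without scrambled library 2 and 0.18 without scrambled library 1. It ran from 0.085 to 0.22 in long-tail RNA, from −0.43 to −0.10 for long-tail minus total in scrambled neurons, from −0.19 to −0.036 in knockdown neurons, from −0.27 to −0.061 averaged, and from −0.081 to 0.39 for the interaction. Of 1040 member differences under other settings 69 changed sign, 67 of which were smaller than their own SE in the fit reported. The cause of these shifts was not tested.

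The labels do not say whether equal replicate numbers mark a pair, and the libraries were treated as sharing only a number. Replicate differences correlated across 9297 genes at r = 0.66 between the total groups, 0.73 between the scrambled groups, 0.52 between knockdown total and scrambled long-tail, 0.47 between the long-tail groups, 0.22 between scrambled total and knockdown long-tail, and −0.14 between the knockdown groups. With the replicate block 0 members passed the threshold in each of the 6 contrasts, and 0 genes were called in the averaged contrast in place of 15. The block cannot move the differences themselves in this balanced design, so the medians are those of the fit without it (0.01 for knockdown minus scrambled in total RNA). With the numbers of the knockdown long-tail libraries crossed, a setting chosen after seeing the data, 0 genes were called for long-tail minus total in knockdown neurons. Fos and Junb were higher in library 1 than in library 2 in all 4 groups, as were 8.6% of genes, and Bdnf was lower in library 1 in all 4, as were 9.94%.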
